A study of Homo sapiens with 15 samples.

Results

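The 44 genes described here encode the core of the spliceosome and its best known partners. They comprise 7 Sm proteins, 3 proteins of the U1 particle, 10 of the U2 particle and its loading factor, 7 of the U4/U6.U5 tri-snRNP, 4 DEAD/DEAH-box helicases, 2 of the Prp19 complex and 11 SR and TRA2 proteins. Members were chosen by gene symbol and known function, with earlier results of the same comparisons in view, so what follows about their differences between groups is a description. All 44 symbols were found among the 69215 genes listed, and 42 of them were among the 12769 genes with enough counts to be compared. The libraries were made from Caco-2, an established line from a human colorectal adenocarcinoma whose monolayers resemble enterocytes. The groups were 5 libraries of cells exposed to polysorbate 80 (PS80) at 0.05% for 24 h, 5 of cells exposed to polysorbate 20 (PS20) at 0.05% for 24 h, and 5 of unexposed control cells. Both compounds are nonionic emulsifiers, polyoxyethylene sorbitan esters that carry mainly oleate in PS80 and laurate in PS20. A single cell line was used, and the labels do not say whether the 5 libraries of a group came from separate cultures, so the p-values below measure only the spread between these libraries.

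The spliceosome removes introns from pre-mRNA. It is assembled anew on each intron from small nuclear ribonucleoproteins (snRNPs), in which a ring of Sm proteins encircles a small nuclear RNA. U1 marks the 5′ splice site, U2 is loaded on the branch point with the help of U2AF, and the tri-snRNP of U4, U6 and U5 then joins. Helicases drive the rearrangements, the Prp19 complex holds the active form together, and SR proteins bind exons and help to choose which splice sites are used. The snRNP core serves splicing in all cells, including intestinal epithelium, while individual SR and TRA2 proteins overlap in function.

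Total counts per library were 6769409 to 42271053 with PS80, 6749086 to 17251564 with PS20 and 4183096 to 13616301 in control. Of 12 markers of intestinal epithelium, 9 were above 1 CPM (counts scaled to the size of the library) in every library. KRT20 was at 0 throughout, and CDX1 and LGALS4 stayed below 1 CPM. The summed level of the 12 was 9783 to 10286 CPM with PS80, 8021 to 8672 CPM with PS20 and 9473 to 11118 CPM in control. Among the markers of other cells, 2 of 5 fibroblast genes (COL1A1 and PDGFRA) exceeded 1 CPM in every library, at a summed 125 to 180 CPM for the 5 genes with PS80, 117 to 142 CPM with PS20 and 141 to 158 CPM in control. For endothelium only PECAM1 of 3 genes did so, and the sum was 11.2 to 16 CPM with PS80, 10.1 to 13.8 CPM with PS20 and 4.3 to 11.8 CPM in control. The 6 blood genes summed to at most 0.506 CPM with PS80, 0.54 CPM with PS20 and 0.214 CPM in control. Mitochondrially encoded RNA took 1.446% to 2.969% of counts with PS80, 2.029% to 2.578% with PS20 and 1.497% to 1.914% in control. PS20 libraries therefore had the lowest epithelial marker sum and a mitochondrial share above all control libraries, and the part of either in the results below was not tested. The lower sum lay mainly in 2 keratins, KRT8 (2684 CPM with PS20 and 4436 CPM in control on average) and KRT18 (1198 CPM with PS20 and 1826 CPM in control). VIL1 (657 CPM with PS20 and 802 CPM in control) and HNF4A (607 CPM with PS20 and 626 CPM in control) also had lower means. Some other epithelial markers had higher means with PS20, among them CDH1 (1706 CPM with PS20 and 1574 CPM in control), EPCAM (1020 CPM with PS20 and 972 CPM in control) and CDX2 (244 CPM with PS20 and 190 CPM in control). In bulk RNA, fewer cells of a type and less RNA per cell cannot be told apart.

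Promoter sequence was the property of these genes that their choice did not use. RefSeq's table for GRCh38.p14 matched 39 of the 44 members, and PRPF3, SF3B3, SNRPD1, SRSF2 and TRA2A were not matched. In the 250 bases before the transcription start, the ETS-factor core CCGGAAG was found on either strand in 19 of 39 members (48.7%). The same letters occurred in 8.82% of all 27305 promoters in the table and in 16.36% of the 9585 promoters whose gene was compared here. The CCAAT box (CCAAT, either strand) was found in 12 members (30.8%), against 33.04% of all promoters and 35.1% of those of compared genes. The E-box CACGTG, a palindrome, was found in 2 members (5.1%), against 6.49% of all promoters and 8.77% of those of compared genes. TATAAA on either strand was found in 3 members (7.7%), against 11.13% of all promoters and 5.22% of those of compared genes. Median GC content was 61.2% in the members and 58.0% in all promoters, and was not computed for those of compared genes. The 39 members include PRPF8 and PRPF31, which had CCAAT boxes but too few counts to be compared. A match is a description of letters in a window and not evidence of a bound factor.

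The stretches below, 5′ to 3′ along each gene's own strand, show the bases next to the start for the 2 members that fell most with PS20 and for 3 that carry the motifs. The DDX46 stretch stops at base -9, where the exon annotated in the counting files begins, and the others run from -150 to -1. Capitals mark the motifs. SNRPD3 (chr22:24555500-24555649, plus strand) had none of the 4 motifs, DDX46 (chr5:134758629-134758770, plus strand) and PRPF6 (chr20:63980982-63981131, plus strand) had ETS cores, and DHX15 (chr4:24584555-24584704, minus strand) and PRPF19 (chr11:60906586-60906735, minus strand) had CCAAT boxes. The SNRPD3 stretch lies before RefSeq's start, while the counting annotation places the gene's first base downstream, at 24555958.
SNRPD3: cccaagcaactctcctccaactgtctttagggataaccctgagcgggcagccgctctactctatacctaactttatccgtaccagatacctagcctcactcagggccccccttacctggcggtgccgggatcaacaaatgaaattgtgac
DDX46: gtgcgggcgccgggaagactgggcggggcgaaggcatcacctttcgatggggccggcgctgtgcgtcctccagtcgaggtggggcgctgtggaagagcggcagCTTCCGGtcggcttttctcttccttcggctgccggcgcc
PRPF6: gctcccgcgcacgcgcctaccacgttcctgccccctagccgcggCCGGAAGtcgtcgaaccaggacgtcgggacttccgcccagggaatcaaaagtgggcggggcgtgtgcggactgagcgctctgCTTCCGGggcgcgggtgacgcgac
DHX15: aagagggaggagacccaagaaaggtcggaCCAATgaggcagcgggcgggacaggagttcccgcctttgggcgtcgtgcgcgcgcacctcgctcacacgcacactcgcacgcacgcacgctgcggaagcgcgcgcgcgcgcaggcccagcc
PRPF19: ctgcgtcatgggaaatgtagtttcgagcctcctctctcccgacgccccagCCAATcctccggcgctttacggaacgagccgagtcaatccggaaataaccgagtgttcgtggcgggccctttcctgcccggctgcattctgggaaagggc

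In unexposed cells the members were well expressed and covered a wide range of levels. Per kilobase of annotated exon, the mean control level ran between 4.73 RPKM for SRSF4 and 119 RPKM for SNRPC, with a median of 31.0 RPKM over the 42 genes. SNRPC (119 ± 9.27 RPKM, SD, n = 5), SNRPD2 (112 ± 7.48), PRPF6 (97.4 ± 4.79), PRPF19 (96.1 ± 5.02) and SF3B4 (85.8 ± 6.87) led the order. SRSF10 (11.2 ± 1.59), SRSF11 (9.13 ± 0.901), PRPF3 (5.66 ± 0.452) and SRSF4 (4.73 ± 0.448 RPKM) closed it. Of the 41 pairs of neighbours in this order, 29 differed by less than the larger SD of the pair, among them SNRPC and SNRPD2. By class, the median control level was 46.2 RPKM for Sm proteins, 42.9 for U1, 31.0 for U2, 21.7 for the tri-snRNP, 28.2 for the helicases, 57.0 for the Prp19 complex and 19.3 for SR and TRA2 proteins. The coefficient of variation of CPM among control libraries had a median of 6.68% and ran between 1.35% for SF3B3 and 18.2% for SRSF1.

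PRPF8 and PRPF31 could not be compared. PRPF8, the large U5 protein at the heart of the active site, had 1 count over all 15 libraries, and PRPF31, a U4/U6 protein, had 4. The annotation used for counting also lists genes on alternative scaffolds, and of the distinct exon lengths of at least 150 bases, 39 of 47 in PRPF8 and 12 of 13 in PRPF31 recurred in a gene annotated there. The scaffold genes had 0 counts. Similar overlap occurred among other splicing genes with many counts, in HNRNPR (18 of 19 lengths, 47657 counts) and HNRNPL (15 of 17, 39588 counts). It also occurred in genes with few, DHX16 (13 of 15, 1 count) and CLK2 (11 of 12, 10 counts). The PRPF8 and PRPF31 counts were not read as expression levels, and the part of the scaffold copies was not tested.

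Most spliceosome mRNAs were lower with PS20 than in control. Of 42 members, 30 fell and 1, PRPF4, rose relative to control at an adjusted p under 0.05 (edgeR's quasi-likelihood test, Benjamini-Hochberg adjusted over all 12769 genes). Across all genes tested, 48.2% passed that threshold in this comparison, 24.3% higher and 23.9% lower, and nothing is read from the members' counts because this contrast was known when they were chosen. In 39 of 42 the log2 fold change was below 0. The median was -0.27 over the members and 0.01 over all genes. All 5 PS20 libraries lay below all 5 control libraries for 21 members and above them for 0, against 16.2% of all genes separated downward and 16.2% upward. Summed over the 42 members, the level was 6266 to 6658 CPM with PS20 and 7680 to 8214 CPM in control.

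PS80 moved fewer members, and in both directions. At the same threshold 6 rose (SNRPD1, SNRNP70, SF3A2, SF3A3, PRPF4 and SRSF4) and 12 fell relative to control, where 33.2% of all genes passed, 17.2% higher and 16.0% lower. The median log2 fold change was -0.04 over the members, and 24 lay below 0. Libraries were fully separated upward for 2 members and downward for 9, against 10.2% and 9.29% of all genes. The summed level was 7494 to 7825 CPM with PS80, overlapping the 7680 to 8214 CPM of control. These counts did not take replicate numbers as pairs, and the libraries' correlations do not settle whether they are. With the replicate number as a block, 27 members passed, 11 of them higher and 16 lower, while the share of all genes that passed rose to 40.6%. The block added SNRPG, SNRPA, SF3A1, SF3B1, EFTUD2, SRSF2, SRSF7, SRSF11 and TRA2B. Without control replicate 2, 3 members passed as higher, where 31.3% of all genes passed in either direction.

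**Figure D1:**
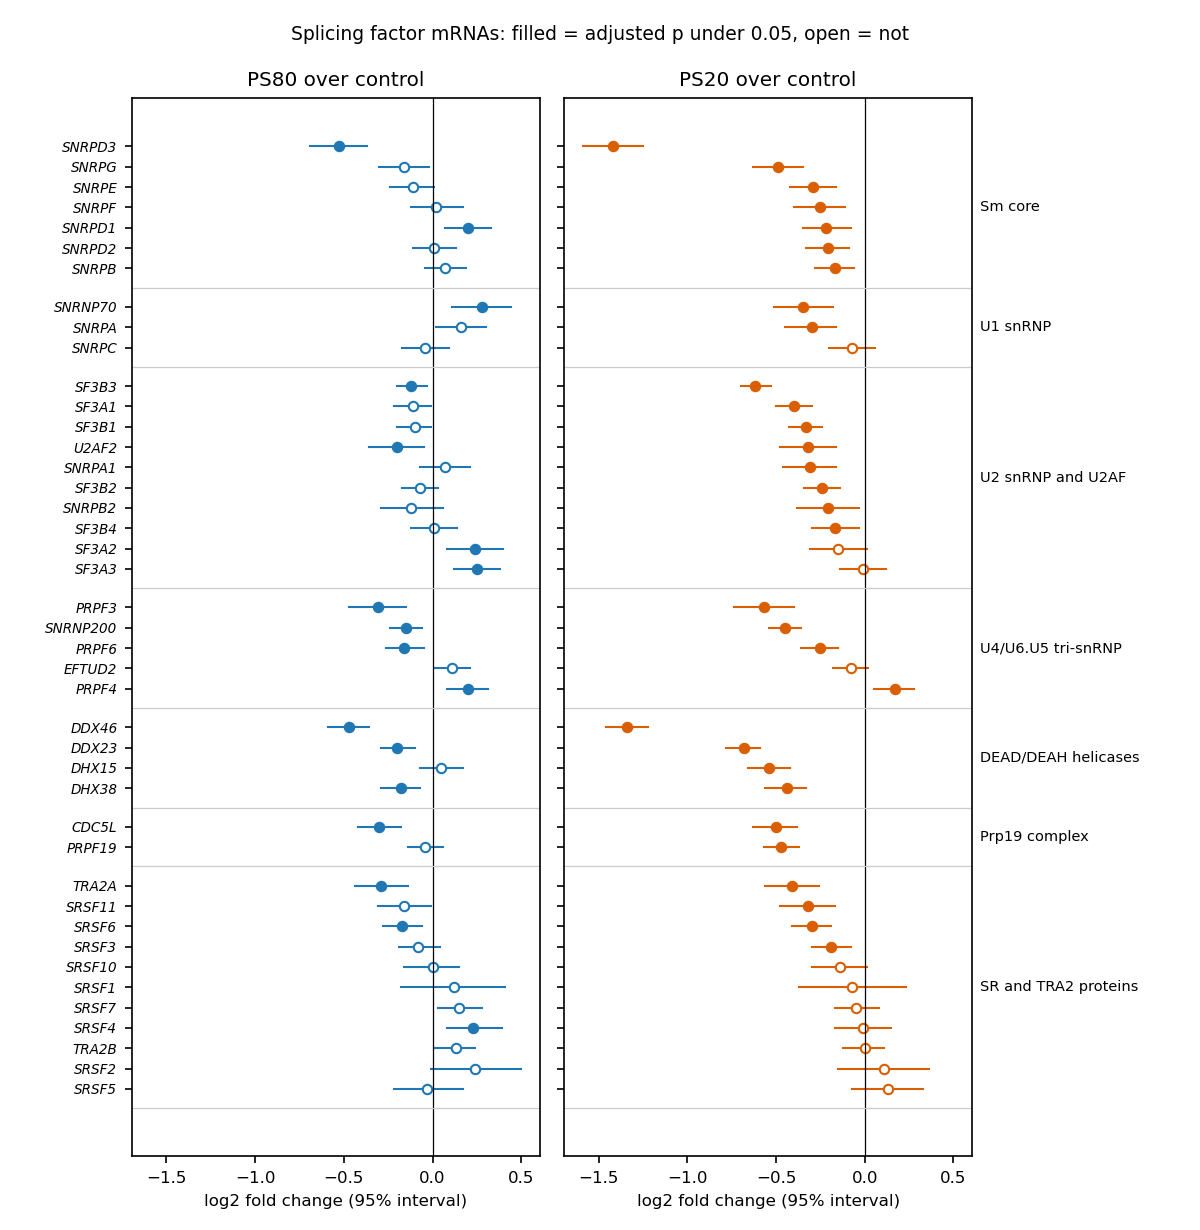
Log2 fold change of the 42 compared members with 95% intervals, for PS80 over control (left) and PS20 over control (right), by class. Filled points passed an adjusted p of 0.05 and open points did not. SNRPD3 and DDX46 lie farthest to the left in both panels, at -0.53 and -0.47 with PS80 and -1.42 and -1.34 with PS20.

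All 7 Sm genes fell with PS20, where 23.9% of all genes were lower, and SNRPD3 fell far more than the others. SNRPD3 encodes SmD3, which pairs with SmB in the Sm ring. It lies at chr22:24555958-24582052 on the plus strand (GENCODE release 42, GRCh38). It had 56.6, 55.9, 65.7, 67.6 and 64.9 CPM in PS80 replicates 1 to 5, 35.3, 27.0, 31.6, 36.1 and 37.1 CPM with PS20, and 83.2, 96.7, 92.4, 87.0 and 87.0 CPM in control. The 3 groups did not overlap, with PS20 lowest and PS80 between PS20 and control. On the log2 scale the fold change was -1.42 ± 0.08 (SE, n = 5 each) for PS20 and -0.53 ± 0.08 for PS80. The level fell by 62.6% with PS20 and fell by 30.7% with PS80. SNRPD3 was number 96 of the 12769 genes in the order from the lowest PS20 value. Of its annotated exonic bases, 14.0% also belong to a gene known by an identifier alone, which averaged 0.0266 CPM with PS80, 0.0224 CPM with PS20 and 0.0147 CPM in control.

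SNRPG, encoding SmG, was the Sm gene with the next largest fall under PS20. Its levels were 98.5, 85.1, 102, 93.4 and 102 CPM with PS80, 68.6, 71.2, 75.7, 84.1 and 82.3 CPM with PS20, and 98.2, 105, 104, 112 and 116 CPM in control. PS20 libraries were all below control, and PS80 libraries overlapped it. For SNRPG the log2 fold change was -0.49 ± 0.07 with PS20 and -0.16 ± 0.07 with PS80, where the gene passed without control replicate 1 or PS80 replicate 5 (-0.19 in each case). SNRPG has 20 named pseudogenes, which together held 6.81% as many counts, so reads may have been divided among near-identical copies.

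The other 5 Sm genes moved less and more evenly. With PS20, SNRPE (SmE) had a log2 fold change of -0.29 ± 0.06, SNRPF (SmF) -0.25 ± 0.07, SNRPD1 (SmD1) -0.22 ± 0.07, SNRPD2 (SmD2) -0.21 ± 0.06 and SNRPB (SmB and its splice form SmB′) -0.17 ± 0.05. Of these only SNRPE was separated from control in every library. With PS80, SNRPD1 rose by 0.20 ± 0.06, and the remaining 4 lay between -0.11 and 0.07 and did not pass. The SNRPD1 call ended without control replicate 2 (0.16) or PS80 replicate 5 (0.18).

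**Figure D2:**
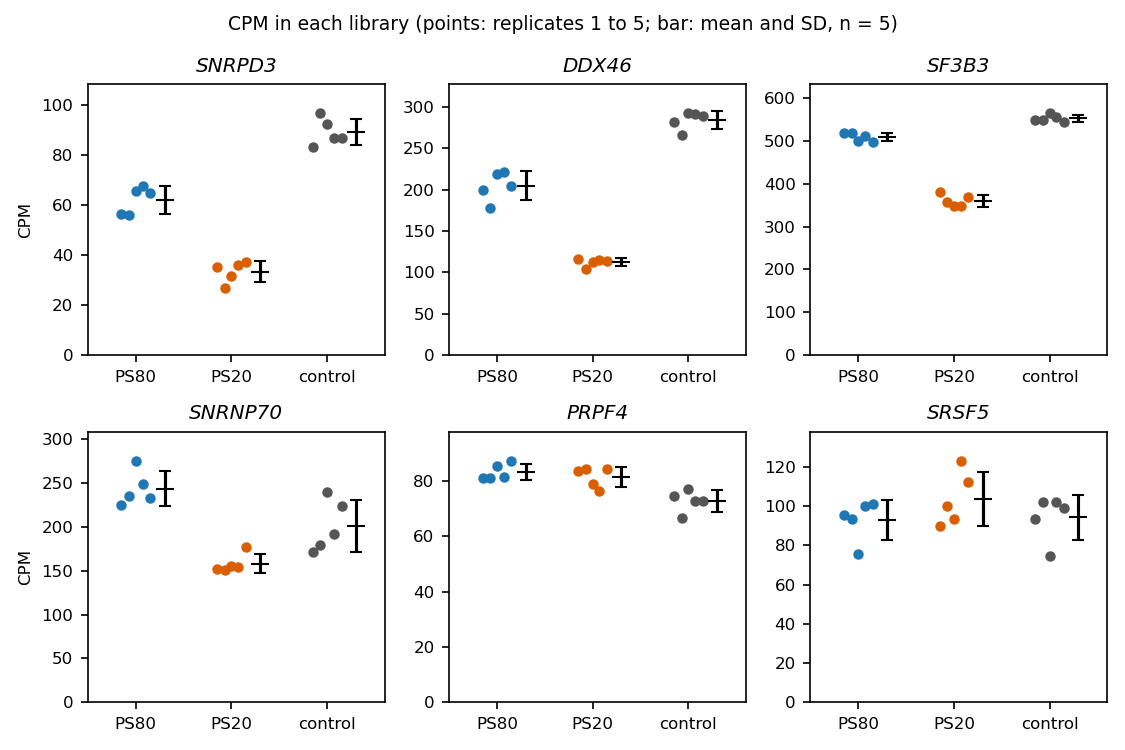
CPM in each library for 6 members, with PS80 left, PS20 in the middle and control right. Points are replicates 1 to 5, and bars give the mean and SD (n = 5). SNRPD3, DDX46 and SF3B3 separate the groups, SNRNP70 is highest with PS80, PRPF4 is higher with both emulsifiers, and SRSF5 overlaps in all groups.

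In the U1 particle, SNRNP70 and SNRPA fell with PS20 and SNRPC did not pass. SNRNP70 encodes U1-70K, which contacts SR proteins at the 5′ splice site. It had 225, 235, 275, 248 and 233 CPM with PS80, 152, 151, 155, 154 and 177 CPM with PS20, and 171, 179, 240, 192 and 224 CPM in control. Control libraries spread widely and overlapped both exposed groups, while PS80 libraries were all above PS20 libraries. The log2 fold change was -0.35 ± 0.08 with PS20 and 0.28 ± 0.08 with PS80, so that SNRNP70 passed in opposite directions against the same control libraries. In replicates 3 to 5 alone the PS80 value of 0.21 did not pass.

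SNRPA, encoding the A protein of U1, had 88.7, 97.2, 85.8, 75.7 and 79.9 CPM with PS80, 65.5, 69.3, 59.6, 57.0 and 59.7 CPM with PS20, and 74.8, 81.9, 76.2, 75.5 and 74.5 CPM in control. All PS20 libraries were below control. The log2 fold change was -0.30 ± 0.07 with PS20 and 0.16 ± 0.07 with PS80, where it passed only when PS80 replicate 4 was left out (0.20) or under the replicate block. SNRPC, encoding the C protein of U1, had 141, 145, 153, 136 and 146 CPM with PS80, 121, 153, 140, 141 and 154 CPM with PS20, and 129, 151, 147, 153 and 160 CPM in control. Its groups overlapped, with log2 fold changes of -0.07 ± 0.06 for PS20 and -0.04 ± 0.06 for PS80.

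Of the 10 genes of U2 and U2AF, 8 fell with PS20, where 23.9% of all genes were lower. Among the 8 were SF3B1, SF3B2, SF3B3 and SF3B4 of the SF3B complex, which clamps U2 onto the branch point. SF3B5, another subunit and not a member, rose with PS20 and is given among the other U2 genes below. SF3B3, a scaffold subunit, had 519, 519, 499, 511 and 498 CPM with PS80, 381, 357, 348, 348 and 368 CPM with PS20, and 549, 549, 564, 556 and 545 CPM in control. The 3 groups did not overlap, and SF3B3 was the member with the smallest relative spread among control libraries. Its log2 fold change was -0.62 ± 0.04 with PS20 and -0.12 ± 0.04 with PS80. The PS80 call ended without control replicate 3 (-0.12), control replicate 4 (-0.12), PS80 replicate 3 (-0.11) or PS80 replicate 5 (-0.12).

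The other 3 members of SF3B had smaller log2 fold changes with PS20 than SF3B3. With PS20, SF3B1, which contacts the branch region and is recurrently mutated in myeloid neoplasms, had a log2 fold change of -0.33 ± 0.05, SF3B2 -0.24 ± 0.05 and SF3B4 -0.17 ± 0.06. SF3B4 no longer passed when any of control replicates 3, 4 or 5 or PS20 replicates 1, 2 or 3 was left out (-0.12 to -0.16). With PS80 the 3 genes lay between -0.10 and 0.01 and did not pass.

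The 3 subunits of SF3A, which joins SF3B to U2, behaved differently from each other. SF3A1 had 164, 159, 188, 171 and 171 CPM with PS80, 143, 135, 141, 137 and 143 CPM with PS20, and 190, 179, 181, 181 and 192 CPM in control. Its PS20 libraries were all below control, at a log2 fold change of -0.40 ± 0.05, and the PS80 value was -0.11 ± 0.05, which passed only without PS80 replicate 3 (-0.15), with DESeq2 or under the block. SF3A3 had 92.3, 82.6, 96.3, 94.1 and 99.3 CPM with PS80, 78.5, 70.3, 76.2, 83.0 and 80.7 CPM with PS20, and 74.6, 77.1, 81.2, 75.2 and 82.7 CPM in control. PS20 and control overlapped for SF3A3 (-0.01 ± 0.06), and PS80 was higher (0.25 ± 0.06), with 1 of its libraries within the control range.

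SF3A2 had a log2 fold change of -0.15 ± 0.08 with PS20, which passed when control replicate 2 was left out (-0.22). With PS80 it had 0.24 ± 0.08, which did not pass without the same library (0.17). In replicates 3 to 5 alone, SF3A2 passed with PS20 (-0.23) and did not pass with PS80 (0.10). U2AF2, the large subunit of U2AF that binds the polypyrimidine tract, fell by 0.32 ± 0.08 on the log2 scale with PS20 and by 0.20 ± 0.08 with PS80. Its PS80 call ended without control replicate 3, 4 or 5, PS20 replicate 2, 3 or 4, or PS80 replicate 1 or 2 (-0.15 to -0.20). SNRPA1 and SNRPB2, both U2-specific proteins, had -0.31 ± 0.07 and -0.21 ± 0.09 with PS20 and 0.07 ± 0.07 and -0.12 ± 0.08 with PS80. The SNRPB2 call with PS20 ended without control replicate 3, 4 or 5, PS20 replicate 1, 2 or 3, or PS80 replicate 1 or 3 (-0.17 to -0.21).

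Among the 5 tri-snRNP genes that could be compared, 3 fell and 1 rose with PS20, where 23.9% of all genes were lower and 24.3% higher. PRPF3, a U4/U6 protein, had 22.9, 23.4, 27.6, 25.9 and 24.1 CPM with PS80, 20.8, 18.2, 21.0, 21.1 and 21.3 CPM with PS20, and 29.6, 27.0, 32.2, 31.0 and 33.2 CPM in control. PS20 libraries lay below all others, and 1 PS80 library reached the control range. For PRPF3 the log2 fold change was -0.57 ± 0.08 with PS20 and -0.31 ± 0.08 with PS80.

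SNRNP200 encodes the helicase Brr2, which unwinds U4 from U6 and so activates the spliceosome. It had 681, 701, 657, 700 and 651 CPM with PS80, 585, 551, 533, 557 and 534 CPM with PS20, and 756, 785, 740, 737 and 739 CPM in control. The 3 groups did not overlap. Brr2 mRNA had a log2 fold change of -0.45 ± 0.04 with PS20 and -0.15 ± 0.04 with PS80.

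PRPF4, which binds PRPF3 in the U4/U6 particle, was the member that went against its class. It had 80.9, 81.0, 85.4, 81.4 and 87.3 CPM with PS80, 83.5, 84.3, 78.8, 76.5 and 84.5 CPM with PS20, and 74.6, 66.7, 77.1, 72.9 and 72.7 CPM in control. PS80 libraries were all above control, and PS20 libraries overlapped it in 1 library. The log2 fold change was 0.17 ± 0.06 with PS20, where the call ended without control replicate 2 (0.13), and 0.20 ± 0.06 with PS80. PRPF6, a bridge between U5 and U4/U6, fell by 0.25 ± 0.05 on the log2 scale with PS20 and by 0.16 ± 0.05 with PS80, the second of which no longer passed without control replicate 4, PS80 replicate 1 or PS80 replicate 3 (-0.14 each). EFTUD2, the GTPase of U5, had -0.08 ± 0.05 with PS20 and 0.11 ± 0.05 with PS80 and passed in neither. With PS80 it did pass when control replicate 4 or PS80 replicate 3 was left out (0.13 each) and under the replicate block (0.11).

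All 4 members classed as DEAD/DEAH-box helicases fell with PS20, where 23.9% of all genes were lower. Their median of -0.61 was the lowest of the member classes, in genes chosen with this contrast known. It does not cover all splicing helicases. SNRNP200 (-0.45 with PS20) was counted with the tri-snRNP, and AQR (-0.41) among the other genes below. DDX46, the human Prp5 homologue that prepares U2 for the branch point, lies at chr5:134758771-134855133 on the plus strand. It had 200, 178, 219, 221 and 205 CPM with PS80, 116, 104, 112, 115 and 114 CPM with PS20, and 282, 266, 292, 291 and 289 CPM in control. The 3 groups did not overlap here either. Its log2 fold change was -1.34 ± 0.06 with PS20 and -0.47 ± 0.06 with PS80, so the level fell by 60.5% with PS20 and fell by 28.0% with PS80. It was number 120 in the order of 12769 genes from the lowest PS20 value. C5orf24, which shares 2.56% of the exonic bases of DDX46, averaged 70.4 CPM with PS80, 77.1 CPM with PS20 and 75.8 CPM in control.

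DDX23, the Prp28 homologue that releases U1 from the 5′ splice site, had 205, 211, 214, 210 and 203 CPM with PS80, 154, 133, 153, 151 and 154 CPM with PS20, and 238, 231, 244, 241 and 242 CPM in control. Again the 3 groups did not overlap, at log2 fold changes of -0.68 ± 0.05 for PS20 and -0.20 ± 0.05 for PS80. DHX15, the Prp43 homologue that takes spent spliceosomes apart, fell by 0.54 ± 0.06 on the log2 scale with PS20. With PS80 it stood at 0.05 ± 0.06 and did not pass. DHX38, the Prp16 homologue that acts between the catalytic steps, fell by 0.44 ± 0.06 with PS20 and by 0.18 ± 0.05 with PS80, and 11.1% of its exonic bases are shared with other genes.

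Both genes of the Prp19 complex fell with PS20, where 23.9% of all genes were lower. CDC5L, a Myb-related core subunit, had 88.9, 85.8, 96.1, 94.8 and 91.1 CPM with PS80, 69.5, 78.6, 79.6, 82.2 and 85.1 CPM with PS20, and 117, 110, 114, 107 and 114 CPM in control. Its 3 groups did not overlap, at -0.50 ± 0.06 for PS20 and -0.30 ± 0.06 for PS80 on the log2 scale. PRPF19, the ubiquitin ligase that gives the complex its name, had 271, 283, 260, 282 and 271 CPM with PS80, 206, 195, 201, 198 and 215 CPM with PS20, and 262, 272, 280, 299 and 290 CPM in control. It fell by 0.47 ± 0.05 with PS20. With PS80 it overlapped control, at -0.04 ± 0.05.

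Of the 11 SR and TRA2 genes, 4 fell with PS20 and 7 did not pass. Over all genes 23.9% were lower and 48.2% passed in either direction, and nothing is read from the class count. The median log2 fold change of the 11 was -0.07. In replicates 3 to 5 alone SRSF1 (-0.16) and SRSF10 (-0.20) passed as well. TRA2A, a splicing activator related to SR proteins, had 47.2, 53.3, 59.5, 59.1 and 58.2 CPM with PS80, 53.5, 50.8, 51.2, 46.6 and 52.3 CPM with PS20, and 73.5, 60.6, 66.1, 65.6 and 73.5 CPM in control. Control was above both exposed groups, at -0.41 ± 0.07 for PS20 and -0.29 ± 0.07 for PS80. SRSF11 had 72.0, 61.8, 68.3, 71.7 and 71.9 CPM with PS80, 65.9, 57.0, 64.9, 64.8 and 54.4 CPM with PS20, and 81.9, 65.2, 85.2, 76.2 and 78.3 CPM in control. Only control replicate 2 fell within the range of the exposed libraries. SRSF11 had a log2 fold change of -0.32 ± 0.08 with PS20 and -0.16 ± 0.07 with PS80, which passed without control replicate 2 (-0.22).

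SRSF6 fell by 0.30 ± 0.05 on the log2 scale with PS20 and by 0.17 ± 0.05 with PS80, the second not without control replicate 4 (-0.15), and SRSF3 fell by 0.19 ± 0.05 with PS20 and stood at -0.08 ± 0.05 with PS80 without passing. SRSF4 rose with PS80, at 0.23 ± 0.08, but not without control replicate 2 (0.18) or PS80 replicate 1 (0.20). In replicates 3 to 5 alone it stood at 0.09 with PS80 and did not pass. SRSF5 had 95.5, 93.2, 75.7, 99.8 and 101 CPM with PS80, 89.9, 100, 93.5, 123 and 112 CPM with PS20, and 93.3, 102, 74.5, 102 and 98.9 CPM in control. All 3 groups overlapped for SRSF5, at 0.13 ± 0.10 with PS20 and -0.03 ± 0.10 with PS80. SRSF10, SRSF7 and TRA2B lay between -0.14 and 0.00 with PS20 and between 0.00 and 0.15 with PS80 without passing. SRSF10 passed with PS20 when control replicate 2 was left out (-0.22). SRSF7 passed with PS80 without control replicate 1 (0.18) or PS80 replicate 4 (0.19), and TRA2B without control replicate 3 or PS80 replicate 2 (0.16 each).

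SRSF1 and SRSF2, founding members of the SR family, were the least precisely measured. SRSF1 had 113, 108, 145, 155 and 160 CPM with PS80, 117, 112, 123, 121 and 123 CPM with PS20, and 133, 86.1, 130, 146 and 132 CPM in control. Its log2 fold changes, 0.12 ± 0.14 with PS80 and -0.07 ± 0.14 with PS20, did not pass. SRSF2 stood at 0.24 ± 0.12 with PS80 and 0.11 ± 0.12 with PS20. Replicates 1 and 2 averaged below replicates 3 to 5 within every group for both genes, over the groups by 0.31 (SRSF1) and 0.28 (SRSF2) on the log2 scale. In replicates 3 to 5 alone, SRSF1 passed with both emulsifiers, at 0.17 with PS80 and -0.16 with PS20, and SRSF2 passed with PS80 at 0.27. Of their exonic bases, 35.1% (SRSF1) and 27.7% (SRSF2) are shared with other annotated genes, and the counting used no strand option.

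**Figure D3:**
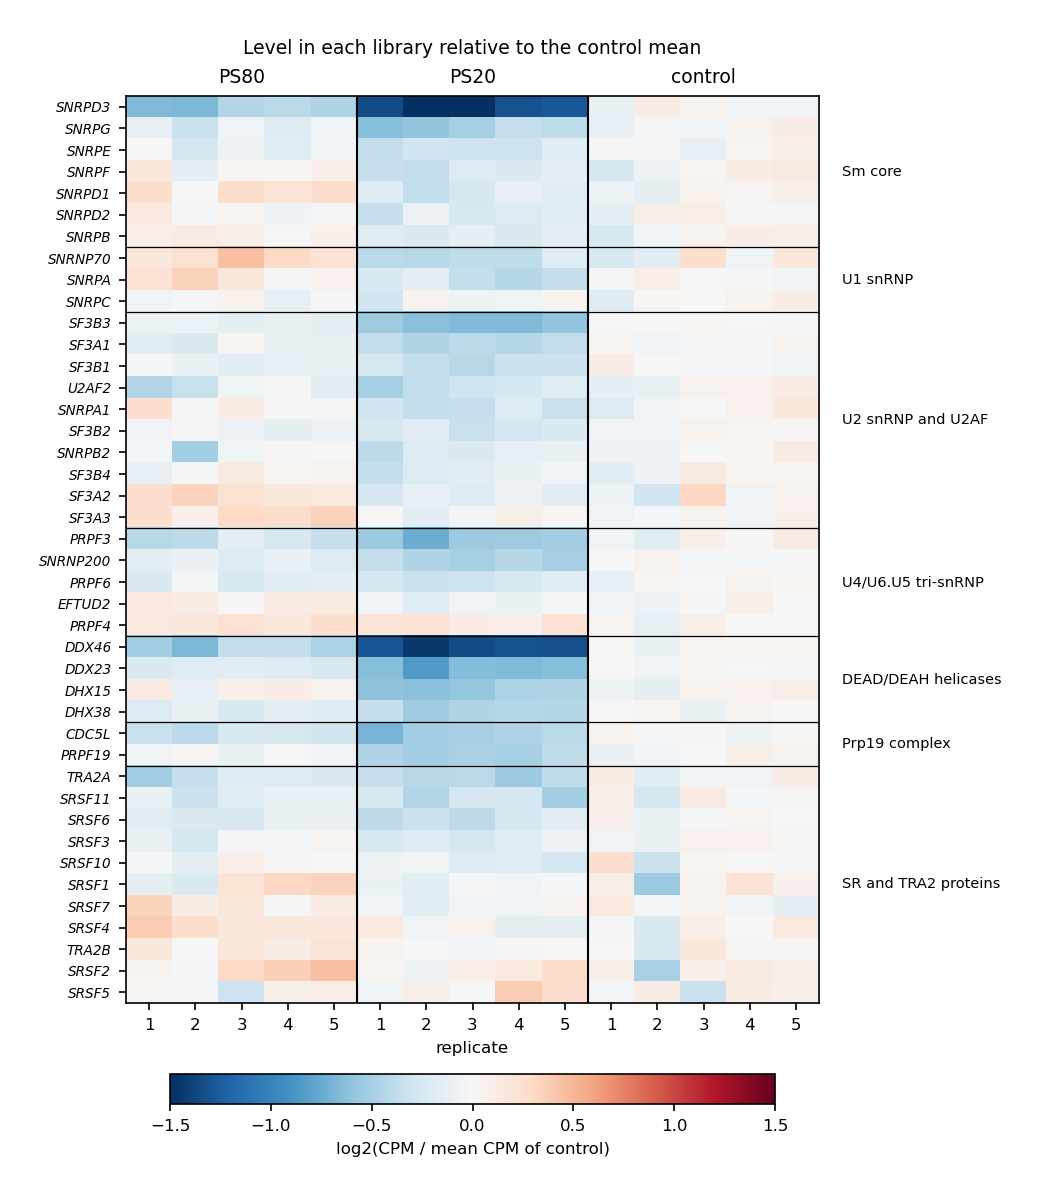
Level of each compared member in each library as log2 of CPM over the mean CPM of control, with PS80 left, PS20 in the middle and control right, and members in rows by class. The PS20 block is mostly blue (lower), most of all for SNRPD3 and DDX46, while control replicate 2 stands out as low for SRSF1 (86.1 CPM) and SRSF2 (117 CPM).

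At the same labelled dose and time, 29 of the 42 members were higher with PS80 than with PS20 and 13 did not pass. This was the single pair of compounds compared, and it differs in the fatty acid of the ester. At an adjusted p under 0.05 no member was lower (0 of 42), and 35.2% of all genes passed, 18.0% higher and 17.2% lower. The members were chosen with this contrast known as well. The log2 fold change of PS80 over PS20 was above 0 in 41 of 42, with a median of 0.22 against 0.00 over all genes. PS80 libraries were all above PS20 libraries for 24 members and below for 0, where 11.7% of all genes were separated upward and 11.0% downward. The summed level was 7494 to 7825 CPM with PS80 and 6266 to 6658 CPM with PS20. Of the 5 PS80 libraries, 4 were counted with a later release of the counting program than every PS20 and control library, so that an effect of the release cannot be told apart from PS80 in those libraries.

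The largest differences were those of SNRPD3, at 0.89 with a 95% interval of 0.73 to 1.06, DDX46, at 0.86 (0.75 to 0.98), and SNRNP70, at 0.62 (0.46 to 0.79). DHX15 (0.59, interval 0.47 to 0.71), SF3B3 (0.50, 0.41 to 0.58), DDX23 (0.48, 0.39 to 0.58), SNRPA (0.47, 0.32 to 0.61) and PRPF19 (0.43, 0.33 to 0.53) followed. All 7 Sm genes, all 4 helicases and both Prp19 genes passed, where 18.0% of all genes were higher. So did 8 of 10 U2 and U2AF genes, 2 of 3 U1 genes, 3 of 5 tri-snRNP genes and 3 of 11 SR and TRA2 genes. SNRPE (0.15 to 0.17), SF3B4 (0.14 to 0.18), SRSF6 (0.11 to 0.15) and SRSF7 (0.15) each lost the call when certain single libraries were left out. For SNRPE these were PS20 replicates 1, 3 and 4 and PS80 replicates 1, 3 and 5, and for SF3B4 PS20 replicates 1, 2 and 3 and PS80 replicates 3, 4 and 5. For SRSF6 they were control replicates 3, 4 and 5, PS20 replicates 1 to 4 and PS80 replicates 1, 4 and 5, and for SRSF7 PS80 replicate 1.

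In the main fit a difference between the compounds was not detected for 13 members, and the intervals show what that leaves possible. PRPF4 stood at 0.03 with an interval of -0.08 to 0.15, SNRPC at 0.03 (-0.10 to 0.16), PRPF6 at 0.10 (-0.01 to 0.20), U2AF2 at 0.12 (-0.04 to 0.27) and TRA2A at 0.12 (-0.03 to 0.27). SRSF5 was the member with a value below 0, at -0.15 (-0.35 to 0.04). SRSF1 and SRSF2 had the widest intervals, 0.19 (-0.11 to 0.48) and 0.14 (-0.11 to 0.39). In replicates 3 to 5 alone, where 38.7% of all genes passed, SRSF1 (0.33), SRSF2 (0.20), SRSF3 (0.16) and SRSF10 (0.23) passed as higher with PS80. SRSF11 (0.19), TRA2A (0.22), TRA2B (0.18) and U2AF2 (0.16) did so too, while SRSF6 and SRSF7 lost their calls. With the replicate block, where 42.7% of all genes passed, SRSF2, SRSF3, SRSF11, TRA2B and U2AF2 passed as higher and SRSF5 as lower. Without PS80 replicate 2, SNRPB2 (0.19), SRSF11 (0.21), SRSF3 (0.16) and TRA2B (0.16) passed too, and TRA2B also passed without control replicate 2 (0.13). PS80 replicate 2 was the deepest library and had the highest mitochondrial share (2.969%). It was also the only PS80 library counted with the earlier release. The part of each in these calls was not tested.

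**Figure D4:**
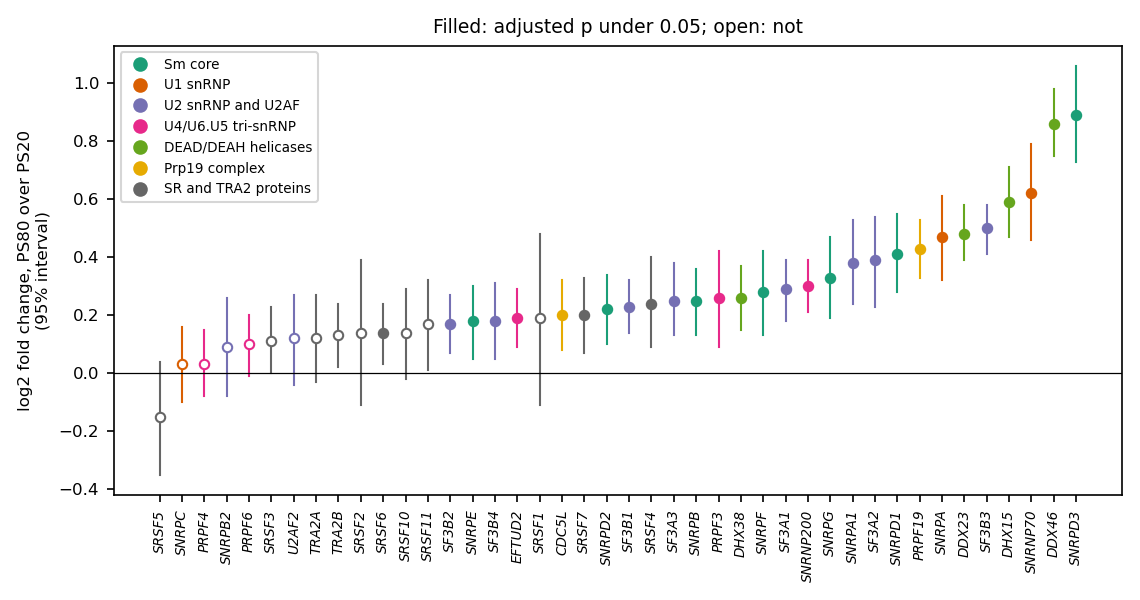
Log2 fold change of PS80 over PS20 for each compared member with its 95% interval, in rising order and coloured by class. Filled points passed an adjusted p of 0.05. The values run between -0.15 for SRSF5 and 0.89 for SNRPD3, and 41 of 42 lie above 0.

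Other genes of the splicing machinery were listed by function, but with earlier results of these data known. Their counts are therefore a description too. Of 152 listed, 142 were found and 137 compared. With PS20, 56 fell and 17 rose relative to control, where 23.9% of all genes were lower and 24.3% higher, and the median log2 fold change was -0.13 over these genes and -0.27 over the members. With PS80, 34 fell and 12 rose, where 16.0% of all genes were lower and 17.2% higher, and the medians were -0.06 over these genes and -0.04 over the members. PS80 over PS20 gave 45 higher and 19 lower, where 18.0% of all genes were higher and 17.2% lower, with a median of 0.07. Without PS80 replicate 2, 11 were lower.

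The lists of other tri-snRNP, LSm, and Prp19 and catalytic genes held more genes that fell than rose with PS20, and many that did not pass. The other U2 genes, where 2 of 9 fell and 1 rose, are given with the remaining lists below. For every list here and below, the background was all genes tested. With PS20, 23.9% of them were lower and 24.3% higher, and with PS80 16.0% were lower and 17.2% higher. Of 12 other tri-snRNP genes 6 fell and 1 rose, and PRPF4B, a kinase of the tri-snRNP, fell by 1.08 ± 0.11 on the log2 scale (adjusted p = 5.47e-07, edgeR's quasi-likelihood test, Benjamini-Hochberg adjusted, as for all values in this paragraph). PRPF4B had 81.1, 70.7, 84.7, 96.8 and 83.4 CPM with PS80, 65.2, 37.4, 55.2, 60.6 and 60.0 CPM with PS20, and 131, 107, 119, 115 and 118 CPM in control, and the 3 groups did not overlap. Of 6 LSm genes, whose products bind U6, 4 fell and 0 rose. LSM7 fell by 0.67 ± 0.07 with PS20 (adjusted p = 1.14e-08) and by 0.28 ± 0.06 with PS80 (adjusted p = 0.00154). Of 23 other genes of the Prp19 complex and catalytic stage, 11 fell and 3 rose with PS20, and 10 fell and 1 rose with PS80. SYF2 had -0.61 ± 0.08 with PS80 (adjusted p = 4.64e-06), CDC40 had -0.53 ± 0.07 with PS20 (adjusted p = 7.17e-07) and the intron-binding helicase AQR -0.41 ± 0.06 (adjusted p = 3.17e-06).

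Of 23 hnRNP genes 11 fell and 1 rose, led by HNRNPR at -0.60 ± 0.05 (adjusted p = 4.63e-10, edgeR's quasi-likelihood test, Benjamini-Hochberg adjusted throughout) and HNRNPA2B1 at -0.51 ± 0.05 (adjusted p = 5.41e-09). With PS80, HNRNPA2B1 stood at -0.29 ± 0.05 (adjusted p = 5.77e-05), and 8 of the 23 fell and 1 rose. Of 5 genes of the exon junction complex, which marks spliced mRNA, 2 fell and 1 rose with PS20. RBM8A fell with both emulsifiers, by 0.75 ± 0.08 with PS20 (adjusted p = 7.53e-08) and by 0.55 ± 0.08 with PS80 (adjusted p = 1.45e-05). Of its exonic bases, 31.35% are shared with other genes. MAGOHB rose by 0.30 ± 0.10 with PS20 (adjusted p = 0.016). TIA1, a U1-associated factor, had -0.59 ± 0.08 with PS20 (adjusted p = 2.44e-06) and -0.42 ± 0.08 with PS80 (adjusted p = 0.000253), and ACIN1, an SR-related protein, -0.62 ± 0.06 with PS20 (adjusted p = 1.64e-08).

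Of 5 kinases that phosphorylate SR proteins, 3 rose and 0 fell with PS20, while 2 did not pass, and 3 rose and 2 fell with PS80. SRPK1, a mainly cytoplasmic SR kinase, had 165, 148, 156, 157 and 157 CPM with PS80, 162, 153, 152, 151 and 139 CPM with PS20, and 132, 125, 124, 131 and 133 CPM in control. Both exposed groups lay above control, at 0.28 ± 0.05 with PS80 and 0.23 ± 0.05 with PS20 (adjusted p = 0.000172 and 0.000582, edgeR's quasi-likelihood test, Benjamini-Hochberg adjusted). SRPK2 rose by 0.36 ± 0.06 with PS80 and 0.31 ± 0.06 with PS20 (adjusted p = 6.44e-05 and 0.000127, same test), and CLK3 was the other kinase that rose. The 2 that fell with PS80 were CLK1, at -0.46 ± 0.11, and CLK4, at -0.39 ± 0.12 (adjusted p = 0.00186 and 0.0167, same test). CLK3, CLK1 and CLK4 were named to account for the counts, after their values were seen. Of the exonic bases of SRPK1, 28.08% are shared with another gene.

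The remaining lists held genes in both directions with PS20, except the U1-associated list, where 0 rose. Several of their counts lay near the shares of all genes, 23.9% lower and 24.3% higher. With PS20, 2 of 9 other U2 genes fell and 1 rose (SF3B5, 0.26 ± 0.06, adjusted p = 0.0019, edgeR's quasi-likelihood test, Benjamini-Hochberg adjusted), 4 of 8 U1-associated genes fell, and 3 of 7 other SR-related genes fell and 1 rose. In the minor spliceosome, which removes a rare class of introns, 3 of 9 fell and 2 rose, with SNRNP35 at -0.53 ± 0.10 and ZCRB1 at 0.32 ± 0.08. In snRNP assembly 4 of 14 fell and 3 rose, with WDR77, a partner of the methyltransferase that modifies Sm proteins, at -0.50 ± 0.09. Of their exonic bases, 43.96% (SNRNP35) and 28.42% (WDR77) are shared with other genes. Among 16 regulators of alternative splicing 6 fell and 1, MBNL2, rose (0.38 ± 0.10, adjusted p = 0.00226, same test).

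**Figure D5:**
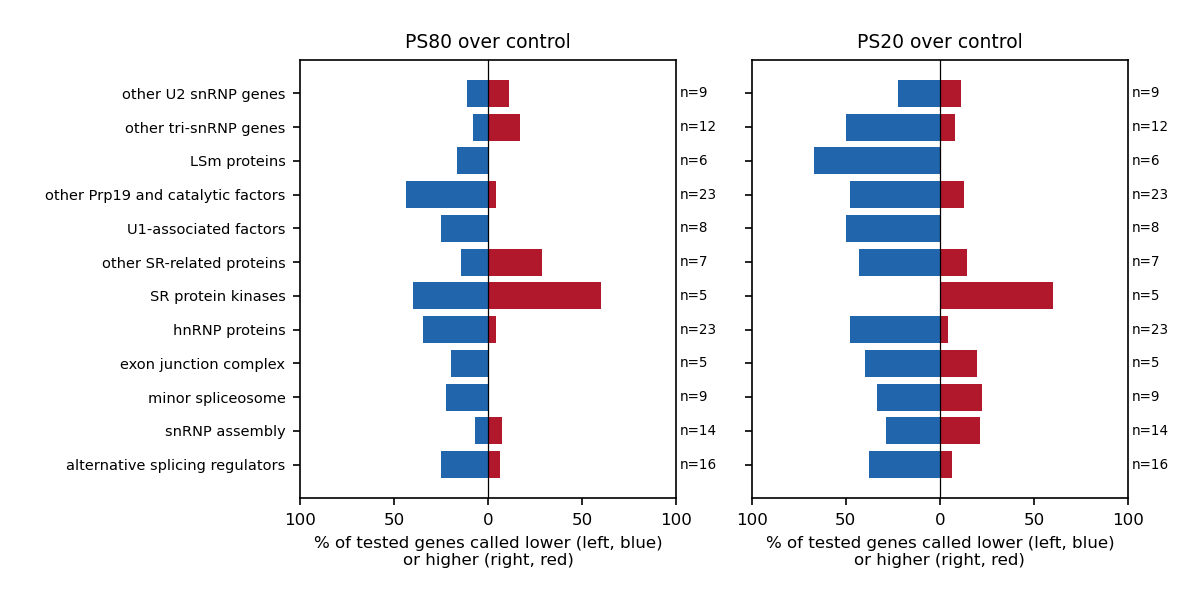
Share of the compared genes in each of 12 lists of other splicing genes that were lower (blue, left) or higher (red, right) at an adjusted p of 0.05, for PS80 over control (left panel) and PS20 over control (right panel), with the number compared beside each bar. In the PS20 panel the blue bars are longer in all lists except SR protein kinases, which had 3 of 5 higher and 0 lower.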

How the data were processed

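RNA of 15 Caco-2 libraries (5 PS80, 5 PS20, 5 control) was isolated with a column kit and sequenced after polyA selection, per the labels' protocols. The deposited values are raw read counts per gene, not normalized. The counting program was featureCounts, per the file headers, against GENCODE release 42 including patches, haplotypes and scaffolds, at a mapping quality of at least 10, with no strand or read-pair option. Version 2.0.3 was used for PS80 replicates 1, 3, 4 and 5 and version 2.0.0 for the other 11. The submitters' processing notes name cutadapt, STAR 2.7.9a, DESeq2 1.32.0 and GRCh38. Counting without strand cannot separate overlapping genes.

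Genes were kept by filterByExpr (minimum count 10, minimum total 15), scaled by trimmed mean of M-values (factors 0.978 to 1.015), and compared with edgeR 4.0.16 in R 4.3.3 (limma 3.58.1) by the quasi-likelihood test with robust dispersion, 1 term per group over all 15 libraries and Benjamini-Hochberg adjustment at 0.05. The scripts were tested on simulated data. CPM uses the scaled library sizes, and RPKM is CPM per kilobase of annotated exon. Fold changes are log2 with SE, and intervals are at the 95% level. Figures and summaries used Python 3.11.15. Symbols came from the supplied gene name table (61918 of 69215 genes). Of the 152 other splicing genes listed, those beyond the 142 found are not reported here. U2AF1, LSM2, DHX16, CLK2 and SMN1 did not pass the filter.

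The members and the lists were chosen with earlier results of these data known. Every library's value is given for the 2 members of each class with the largest absolute log2 fold change for PS20 and the 1 for PS80, and for the 3 highest and 3 lowest of PS80 over PS20. From each list of other genes the 2 with the smallest p for PS20 and the 1 for PS80 could be named. SRSF1 and PRPF4B are shown by library because of their spread and size.

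Replicate numbers in the titles recur in each group. For PS80 and control, libraries of the same number shared part of their deviation from the group mean (correlations across genes 0.102 to 0.304), although PS80 replicates 1 and 5 correlated better with another number. For PS20 and control the correlations were -0.0264 to 0.248, and only replicate 4 correlated better with another number. For PS80 and PS20 they were 0.0741 to 0.29, and replicates 2 and 4 correlated better with another number. These values do not settle whether the numbers are pairs. The main fit paired no libraries in any comparison. Alternatives were size factors by relative log expression, no low-count filter, DESeq2 1.42.0, the replicate block, each library left out, replicates 1 and 2 or 3 to 5 alone, and only the 2 groups compared.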

Additional observations from a re-analysis of the deposited data

Results flagged for a closer look

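In groups of 5 libraries, a library counted as standing apart when its gap to the nearest other exceeded 0.71 of the group's range, which chance gives in about 1 in 20 groups. Of 126 groups of members checked, 8 held such a library. In PS80 replicate 2, SNRPD1 was at 113 CPM against 131 to 136 CPM in the other PS80 libraries, and SNRPB2 at 55.5 CPM against 75.7 to 80.1 CPM. In PS20 replicate 2, DDX23 was at 133 CPM against 151 to 154 CPM in the other PS20 libraries, and PRPF3 at 18.2 CPM against 20.8 to 21.3 CPM. In PS20 replicate 5, SNRNP70 was at 177 CPM against 151 to 155 CPM. In control replicate 2, SRSF1 was at 86.1 CPM against 130 to 146 CPM in the other control libraries, SRSF2 at 117 CPM against 172 to 180 CPM, and SNRPA at 81.9 CPM against 74.5 to 76.2 CPM. Of the 8 values found in this way, 7 were from a replicate 2, and the cause was not tested.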

How the results depend on the processing

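No fold change of a member named by the rule reversed under any alternative run where it had been called. Relative log expression factors, DESeq2 and a fit of the 2 groups alone kept every count within 1.5 times. Replicates 1 and 2 alone, with fewer libraries, gave fewer calls. For PS80 against PS20 they gave 1612 genes, 16 members (16 higher) and 14 other splicing genes (10 higher, 4 lower). For PS80 against control they gave 2213 genes, 7 members (3 higher, 4 lower) and 19 other splicing genes (7 higher, 12 lower), and for PS20 against control 3297 genes, 17 members (0 higher, 17 lower) and 36 other splicing genes (9 higher, 27 lower). Without the low-count filter, 7 members and 22 other splicing genes were lower with PS80 against control, 0 members were higher with PS20, and 11 other splicing genes were lower with PS80 against PS20. The cause was not tested. With replicates 3 to 5 alone, 0 members were higher with PS20. With the replicate block, 11 members were higher with PS80 against control (6 without it), 2 higher with PS20 and 1, SRSF5, lower with PS80 against PS20. The block moved no other count of calls by over 1.5 times. It raised the share of all genes that passed from 33.2% to 40.6% for PS80 against control. That share rose from 48.2% to 53.8% for PS20 against control and from 35.2% to 42.7% for PS80 against PS20. With each library left out in turn, members higher with PS20 numbered 0 to 1, members higher with PS80 against control 3 to 8, and other splicing genes lower with PS80 against PS20 11 to 20. The values of 0 and 3 came without control replicate 2, and that of 11 without PS80 replicate 2. The shallowest library, with 4183096 counts, limits the precision of low genes such as PRPF3.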
